A study of Homo sapiens with 2 samples.

Results

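The miRNAs described here are 10 names best known from blood, liver, muscle, brain or endocrine tissue, in small RNA libraries of a breast cancer cell line. At least miR-9 and miR-375 are also known in breast epithelium or carcinomas. The 10 names were chosen by name and not by level, though with earlier results of these data known. They cover every product, from either arm of the hairpin. The names are miR-451a, miR-486 and miR-144 (blood), miR-122 (liver), and miR-1, miR-133a and miR-133b (striated muscle). The others are miR-124 and miR-9 (brain) and miR-375 (endocrine cells and luminal epithelium). Of the 425 mature miRNAs listed in either library, 5 belonged to these 10 names. They were miR-9-5p, miR-9-3p, miR-486-5p, miR-486-3p and miR-1. A name without a value was taken as 0.

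The cells were MDA-MB-231-IV2-1, derived in a mouse from the human triple-negative breast cancer line MDA-MB-231 for its high metastatic ability, so that both libraries come from a single selected subline. The sample titles name the IV2 subline, and the cell line field names only MDA-MB-231. The N.C library is the control, from cells that received the scrambled siRNA, and the si-LOC550643 library is the knockdown, from cells transfected with a pool of siRNAs against the long non-coding RNA LOC550643. RNA was taken 48 h after transfection, from cells grown in medium with fetal bovine serum. With 1 library per condition, differences between the libraries could not be set against replicate error, and no test was run.

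A miRNA is cut from a hairpin transcript, and the 5p or 3p arm that is loaded into the silencing complex pairs with target mRNAs through its seed, bases 2 to 8. Some miRNAs are made almost exclusively in a single lineage. In red cell precursors miR-451a and miR-144 come from a shared transcript, and miR-486 accompanies them and is also found in muscle. In hepatocytes miR-122 is by far the leading miRNA. Heart and skeletal muscle make miR-1 and miR-133 from shared transcripts. Neurons make miR-124, and neural progenitors make miR-9, which is also known in carcinomas as a repressor of E-cadherin. Pancreatic islets and hormone receptor-positive breast epithelium make miR-375.

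RefSeq mature sequences were found for 7 of the 10 names, in a search that did not cover every chromosome. No sequence is shown for miR-451a, miR-486 or miR-124. The leading arms are shown because they tell which names can be separated by sequence and which cannot. The capitals mark the seed.
miR-9-5p: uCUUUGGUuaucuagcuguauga
miR-9-3p: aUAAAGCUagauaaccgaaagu
miR-1-3p: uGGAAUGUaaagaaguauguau
miR-206: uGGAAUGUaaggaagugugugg
miR-133a-3p: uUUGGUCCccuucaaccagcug
miR-133b: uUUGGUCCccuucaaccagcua
miR-122-5p: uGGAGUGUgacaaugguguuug
miR-144-3p: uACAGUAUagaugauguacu
miR-375-3p: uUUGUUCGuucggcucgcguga

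The name miR-1 in the tables is the older name of miR-1-3p. It shares its seed with miR-206, a skeletal muscle miRNA outside the 10 names, and 18 of its 22 bases match miR-206 in place. The seed of miR-133a-3p is that of miR-133b, and 21 of their 22 bases are identical. Among the mature sequences searched, the closest to miR-9-5p was miR-581, which matches 14 of its 23 bases. Apart from miR-9-5p, no mature miRNA among those searched has its seed. Not every chromosome was covered. In GRCh38 (RefSeq, GRCh38.p14) the same miR-9-5p sequence lies in 3 hairpins. MIR9-1 is on chromosome 1 from 156420341 to 156420429 (minus strand), in an intron of C1orf61 in GENCODE 29. MIR9-2 is on chromosome 5 from 88666853 to 88666939 (minus strand), in an exon of the lincRNA LINC00461, and MIR9-3 is on chromosome 15 from 89368017 to 89368106 (plus strand), in an intron of MIR9-3HG. Reads of miR-9-5p cannot be assigned to any of these hairpins.

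The values are RPM, the reads of a miRNA scaled by the total on mature miRNAs. Most low values lie on a ladder. Its step, the RPM worth 1 read, was 5.29 in the N.C library and 2.03 in the si-LOC550643 library. This places about 189034 and 491541 reads on miRNAs. The floor of 3 reads was therefore 15.9 RPM in the N.C library and 6.10 RPM in the si-LOC550643 library. Of the values up to 20 reads, 92.9% and 91.5% lay within 0.1 read of a whole number. Each of the 5 miRNAs did so in each library that listed it. The smallest values listed, 1.76 RPM in the N.C library and 0.82 RPM in the si-LOC550643 library, were under 1 read.

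Of the 10 names, 2 had a product in both libraries, 1 in the si-LOC550643 library only and 7 in neither. Products above the floor came only from the 5p arms of miR-9 and miR-486, which held 93.9% of the reads of the 5 miRNAs in the N.C library and 94.5% in the si-LOC550643 library. All 5 miRNAs together summed to 259 RPM in the N.C library (49 reads, 95% exact Poisson interval 191.8 to 343 RPM) and to 221.7 RPM in the si-LOC550643 library (109 reads, 182 to 267 RPM). These sums are 0.0259% and 0.0222% of the miRNA reads.

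Among the brain miRNAs, miR-9-5p had the highest level of all 5 miRNAs in both libraries. It was at 169 RPM in the N.C library (32 reads), with a 95% Clopper-Pearson interval from 116 to 239 RPM, and at 120 RPM in the si-LOC550643 library (59 reads, 91.4 to 155 RPM). Its rank was 104 of 376 listed miRNAs in the N.C library and 109 in the si-LOC550643 library, and the intervals of its level overlapped. By the mean of both libraries it ranked 111 of 425, between miR-186-5p (138 and 157 RPM) and miR-381-3p (84.6 and 193 RPM). The other arm, miR-9-3p, had 1 read in the N.C library (5.28 RPM) and no value in the si-LOC550643 library. The 5p arm thus held 32 of the 33 reads of miR-9 in the N.C library and all 59 in the si-LOC550643 library. No product of miR-124, the neuronal miRNA, was listed. The level of miR-9-5p was 10.7 times the 3-read floor in the N.C library and 19.7 times in the si-LOC550643 library. These are ratios of point values without counting error, and not lower bounds on its ratio to miR-124.

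Among the blood miRNAs, only miR-486 was listed. The level of miR-486-5p was 74.1 RPM in the N.C library (14 reads, interval 40.5 to 124.3 RPM). It was 89.5 RPM in the si-LOC550643 library (44 reads, 65.0 to 120 RPM), with ranks of 134 and 125. Its other arm, miR-486-3p, had 2 reads in the N.C library (10.6 RPM) and 3 in the si-LOC550643 library (6.10 RPM), at or under the floor in both. The erythroid miRNAs miR-451a and miR-144 were without a value in both libraries. The point value of miR-486-5p was 4.67 times the 3-read floor in the N.C library and 14.7 times in the si-LOC550643 library, counting error not included. Markers of white cells, miR-142, miR-223 and miR-150, were not listed in either library.

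Among the muscle miRNAs, miR-1 had no value in the N.C library and 3 reads in the si-LOC550643 library (6.10 RPM, 1.26 to 17.8 RPM), which is the floor itself. Neither miR-133a nor miR-133b was listed. The mature sequences of miR-1 and miR-133a lie 10.6 kb apart on chromosome 20 (MIR1-1 and MIR133A2) and 3.28 kb apart on chromosome 18 (MIR1-2 and MIR133A1). The neighbour of miR-133b on chromosome 6 is miR-206, 4.57 kb away. This miRNA was listed at 52.9 RPM in the N.C library (10 reads, 25.4 to 97.3 RPM) and at 36.6 RPM in the si-LOC550643 library (18 reads, 21.7 to 57.9 RPM). The point value of miR-206 was 3.33 times the floor in the N.C library and 6.0 times in the si-LOC550643 library, counting error not included. Whether any read of miR-1 belongs to miR-206, which shares its seed, cannot be told from the tables.

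The liver miRNA miR-122 and the endocrine and luminal miRNA miR-375 were not listed in either library. With 3 reads as the limit that a count of 0 allows, their share was at most 0.00159% of the miRNA reads in the N.C library and 0.00061% in the si-LOC550643 library. The upper ends of the Clopper-Pearson intervals for 0 reads are somewhat higher, 19.5 and 7.505 RPM. The same limits hold for miR-451a, miR-144, miR-133a, miR-133b and miR-124. The si-LOC550643 library had 2.60 times the reads of the N.C library and sets the lower limit for each of these 7 names.

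**Figure D1:**
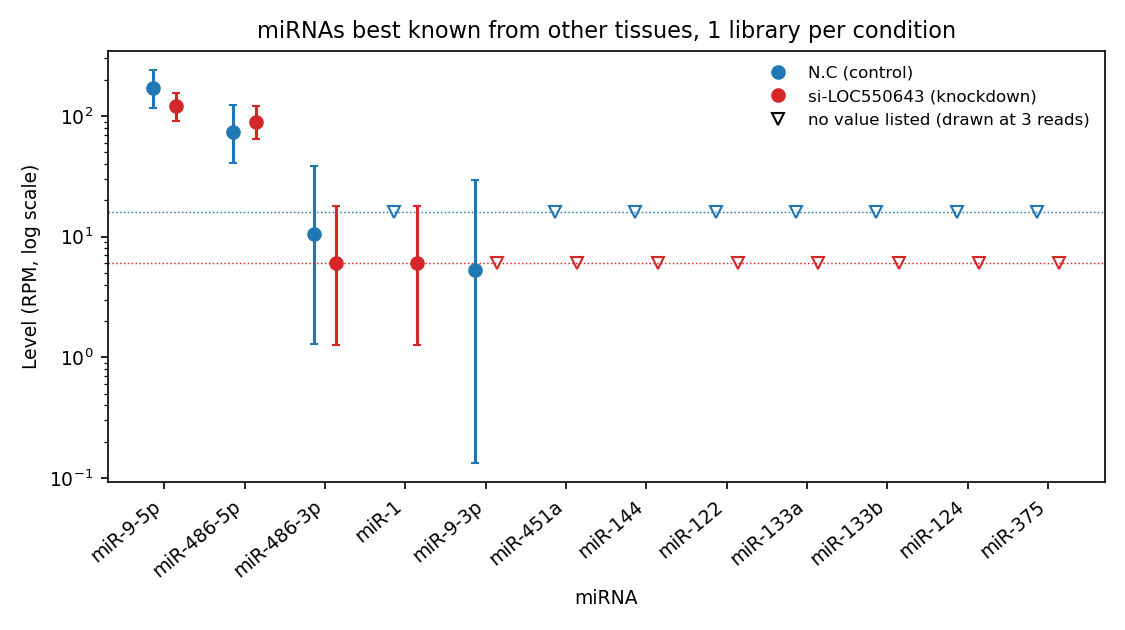
Levels of the miRNAs best known from other tissues in the N.C library (blue) and the si-LOC550643 library (red), in RPM on a log axis, with 95% Clopper-Pearson intervals. Open triangles stand at the 3-read floor (dotted lines, 15.9 and 6.10 RPM) for names without a value, and only miR-9-5p and miR-486-5p lie above the floor of their library.

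**Figure D2:**
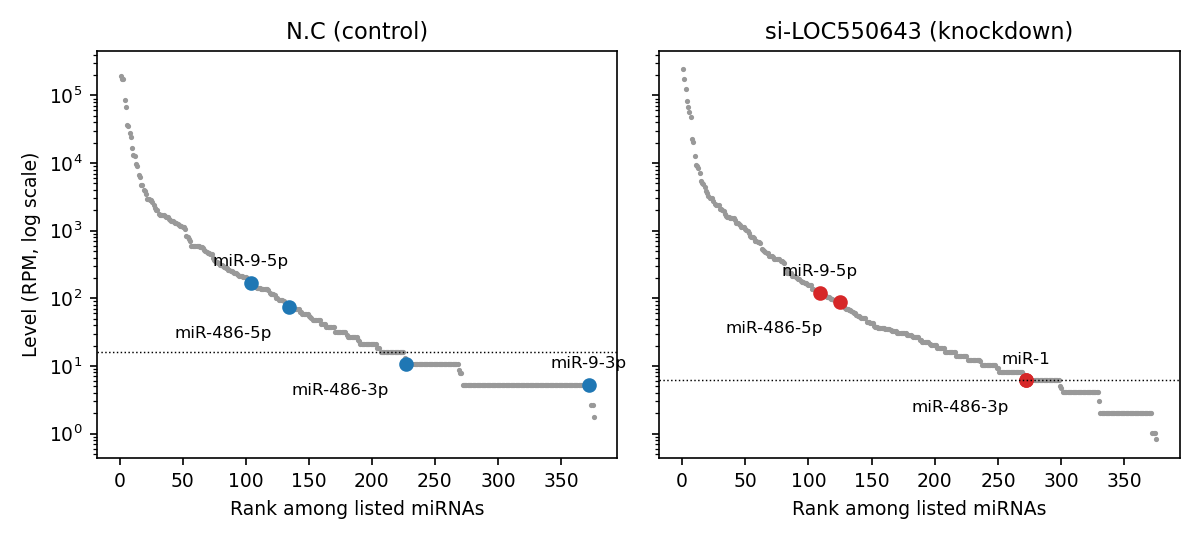
Level in RPM (log axis) against rank for all miRNAs listed in each library (grey), with the miRNAs best known from other tissues in colour and the 3-read floor dotted. In both libraries miR-9-5p and miR-486-5p rank from 104 to 134, at 74.1 to 169 RPM. The other products sit at or under the floor, and in the si-LOC550643 library the points of miR-1 and miR-486-3p coincide. Ranks within a plateau of equal reads carry no order.

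The levels were then compared between the libraries, to see whether any of these miRNAs differed after LOC550643 knockdown. After rescaling to a common total, the value of si-LOC550643 was divided by that of N.C on the log2(RPM + 1) scale. On this scale changes at low levels come out smaller than they are. For miR-9-5p the log2 fold change was -0.49 with a counting interval of -1.14 to 0.17. At the share it had in the N.C library, miR-9-5p would have had 83.2 reads in the si-LOC550643 library, where 59 were counted. For miR-486-5p the log2 fold change was 0.27 (-0.62 to 1.26), with 44 reads counted where the control share gives 36.4. Both intervals include 0, so that differences of the size seen for miR-9-5p and miR-486-5p were within counting error at this depth. The intervals also reach beyond 2-fold in a single direction for each miRNA, and they cover counting error only.

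The ratio of miR-486-5p to miR-9-5p does not depend on the scaling of the libraries. It was 0.438 in the N.C library and 0.746 in the si-LOC550643 library. The conditional odds ratio of knockdown over control was 1.70 with a 95% exact interval of 0.771 to 3.88, which includes 1.

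At the 2-fold threshold 1 of the 5 miRNAs, miR-1, was counted as higher in the si-LOC550643 library and 1, miR-9-3p, as lower. Over all 425 miRNAs 17.9% passed 2-fold in the higher direction and 27.3% in the lower. Both miR-1 (log2 fold change 2.83) and miR-9-3p (-2.65) had at most 3 reads in the library that listed them, and no bound on their fold is given because neither library exceeded the floor. Among the 149 miRNAs that did not exceed 3 reads in either library, 87 (58.4%) were listed in a single library, as were miR-1 and miR-9-3p. Of these 149, 24.2% were counted as higher and 59.7% as lower. The log2 fold change of miR-486-3p was -0.71 with an interval of -3.92 to 2.79. Of the 2 miRNAs above the floor, miR-9-5p and miR-486-5p, 0 were beyond 2-fold. Among the 276 miRNAs above the floor in at least 1 library 14.5% were higher and 9.78% lower, and among the 201 above it in both 3.48% were higher and 10.9% lower. The median log2 fold change was -0.49 for the 5 miRNAs and -0.20 for all 425. For the 52 miRNAs above the floor in both libraries with a mean of 50 to 200 RPM, the range that holds miR-9-5p and miR-486-5p, the median was -0.32 and the quartiles were -0.90 and 0.28. The values of miR-9-5p and miR-486-5p lie within these quartiles.

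**Figure D3:**
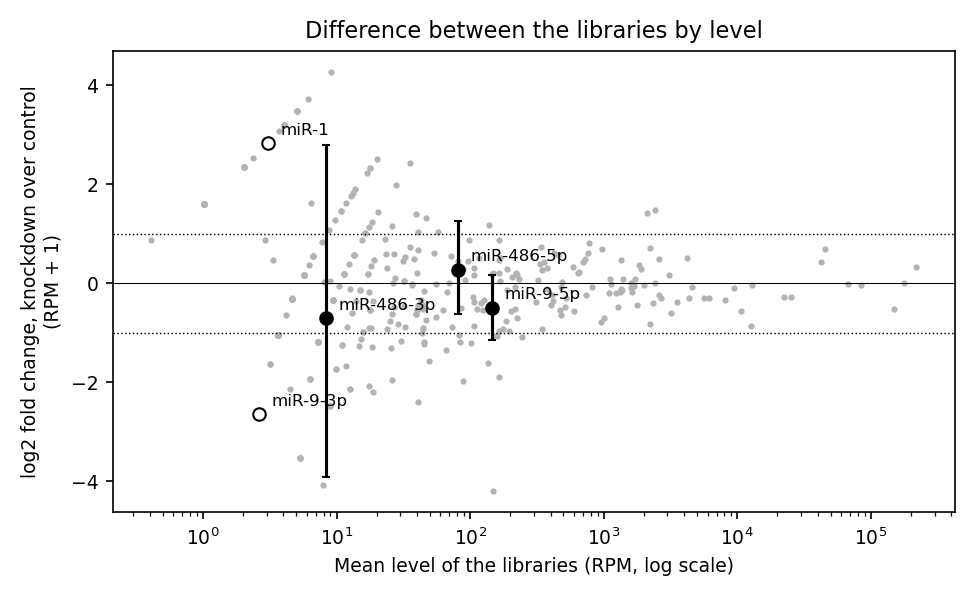
Log2 fold change of knockdown over control (RPM + 1) against the mean level of the libraries (RPM, log axis) for all 425 miRNAs (grey), with the 5 miRNAs best known from other tissues in black. Bars are 95% counting intervals, open circles mark miRNAs listed in a single library, and dotted lines mark 2-fold; the intervals of miR-9-5p, miR-486-5p and miR-486-3p include 0.

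The levels were also set beside lists of marker miRNAs, in which a name counts through any of its products. The lists were chosen with earlier results of these data known, so they describe the libraries and do not test the labelled cell type. The list for a mesenchymal-like triple-negative line summed to 369506 RPM in the N.C library and 314219 RPM in the si-LOC550643 library. Most of this came from miR-21-5p (176111 and 175871 RPM), the highest by the mean of both libraries, and miR-100-5p (176487 and 123748 RPM). Of the 7 names on this list, 6 were above the floor in both libraries. The exception was miR-31, whose 5p arm had 1 read and 3 reads. It is commonly described as low in MDA-MB-231, so its place on this list was doubtful. Of the 8 names on the luminal and epithelial list, which holds miR-375, 5 were not listed at all. The remaining 3, miR-200a, miR-200b and miR-200c, together had 10.6 RPM in the N.C library (2 reads) and 10.2 RPM in the si-LOC550643 library, and the highest, miR-200b-3p, had 1 read and 3.50 reads. The absence of miR-375 thus came with low values for the whole list. Only miR-200b was above the floor, and only in the si-LOC550643 library.

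The erythroid list consists of the blood names already described, and it summed to 84.6 RPM in the N.C library (48.4 to 137.5 RPM) and 95.6 RPM in the si-LOC550643 library (70.3 to 127 RPM), all of it from miR-486. The muscle and brain lists add names to those of the 10. On the striated muscle list 1 of 7 names, miR-206, was above the floor in each library, and miR-208a, miR-208b and miR-499a were not listed. The brain list held 3 of 6 names above the floor in both libraries and summed to 947 and 1013 RPM. Its leading product was miR-128 (598 and 688 RPM), which many tissues express at lower levels than brain. On the same list miR-129-5p had 32 reads in the N.C library, the same number as miR-9-5p, and 101 in the si-LOC550643 library (205.4 RPM), where miR-9-5p had 59. The other names of the brain list, miR-124, miR-137 and miR-219a, were not listed under these names. The source of the miR-9 and miR-486 reads was not tested.

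**Figure D4:**
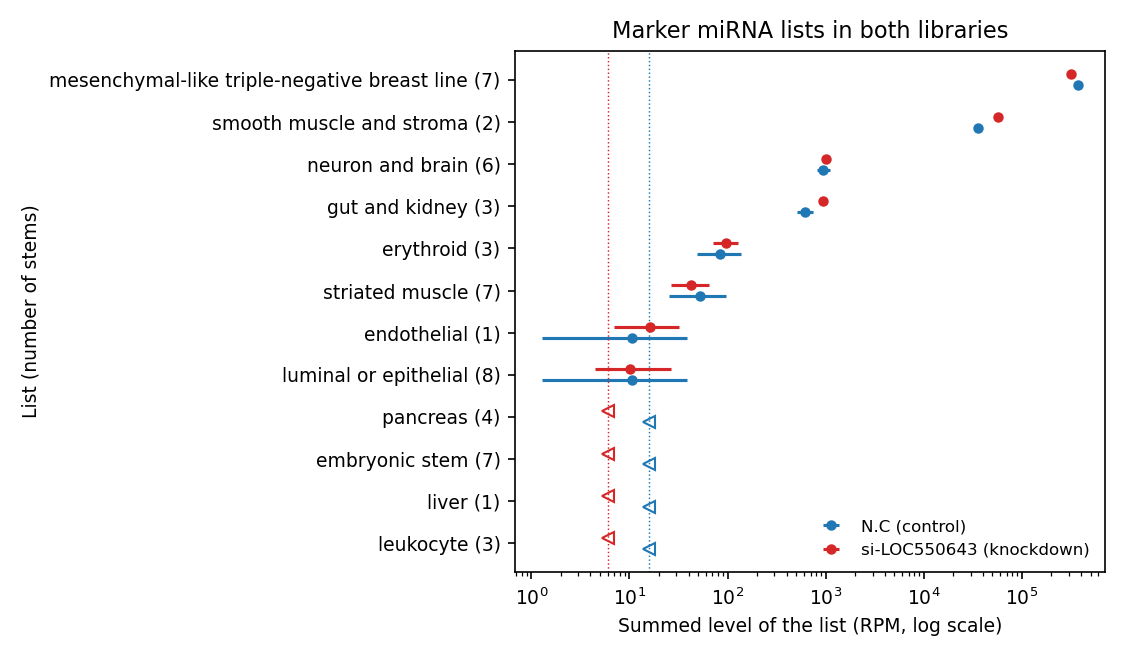
Summed level of each marker list in RPM (log axis) in the N.C library (blue) and the si-LOC550643 library (red), with exact Poisson intervals and the number of names in brackets. Open triangles stand at the 3-read floor for lists without any value, which are the pancreas, embryonic stem, liver and leukocyte lists; the erythroid and striated muscle lists lie between 42.7 and 95.6 RPM.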

How the data were processed

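Small RNA libraries of the control and the LOC550643 knockdown cells, 1 each, were prepared by the authors with a NEBNext small RNA kit, sequenced on a MiSeq and assigned to mature miRNAs with their own tool. The submitters' processing notes name FastQC, cutadapt and hg38. The aligner, the release of the miRNA reference and whether low values were filtered are not given in the sources used here. The deposited values are RPM, which sum to 999996 and 999845. Ligation and amplification differ between miRNA sequences, so RPM of different miRNAs are only roughly comparable, and reads carry no molecular identifiers. Names follow an older miRBase release.

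The RPM of 1 read was fitted, by least squares, to values up to 20 reads within 0.1 read of a whole number. As not all low values were whole reads, no count test was run. Values were rescaled to a common total, with a pseudocount of 1 RPM and a 2-fold threshold. Clopper-Pearson, Poisson and conditional binomial intervals (95%) cover counting error only. The ladder fit and the conditional binomial interval were tested on simulated data. The simulated reads were all whole, unlike some low values here, and interval coverage was checked at a single low mean. The names and the marker lists were chosen with earlier results of these data known. All listed products of the 10 names are described, the non-members next in mean level to the highest, and the leading product or unlisted names of the marker lists; miR-206, miR-31, miR-200a, miR-200b, miR-200c, miR-129 and miR-145 were named after their values were seen. Alternatives covered scaling, pseudocount, filters, thresholds, the floor, the step and the lists. Python 3.11.15, numpy 2.4.6, pandas 2.3.3, scipy 1.17.1 and matplotlib 3.10.9 were used.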

Additional observations from a re-analysis of the deposited data

How the results depend on the processing

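No paired analysis was possible because there is a single library of each condition, and no replicate could be left out. The counts of 1 miRNA more than 2-fold higher (miR-1) and 1 more than 2-fold lower (miR-9-3p) both became 0 with a pseudocount of 10 RPM, among miRNAs above 0 in both libraries, among miRNAs with more than 3 reads in a library, and with values at or under 3 reads set to the floor. At a 1.5-fold threshold 2 were lower. The scaling to the deposited total, by the median of ratios or by the 75th percentile and a pseudocount of 0.1 RPM left both counts as they were. Median-of-ratios scaling moved the median over all miRNAs, as log2 fold change, from -0.20 to -0.0019 and 75th-percentile scaling to 0.08.

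Over 9 alternatives the log2 fold change of miR-9-5p ran from -0.50 to -0.21 and that of miR-486-5p from 0.24 to 0.55, all inside their counting intervals. At 10 RPM or more, 2 of the 4 products of the si-LOC550643 library and 3 of the 4 of the N.C library were left. With the smallest value of each library taken as 1 read, 4 products of the si-LOC550643 library exceeded 3 reads instead of 2. In the N.C library 3 products did so instead of 2. A floor of 5 reads changed neither library. Without miR-9, the name with the highest level, the sums fell to 84.6 RPM in the N.C library and 101.7 RPM in the si-LOC550643 library. Leaving out miR-375 changed nothing, as it has no value. With a single arm per hairpin, the list for the triple-negative line summed to 311874 RPM in the si-LOC550643 library. Counting older spellings of miR-203a, miR-219a and miR-499a, chosen after seeing the data, raised the brain list to 952 and 1019 RPM. At 3 reads or fewer, presence in a single library cannot be told from absence.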

Other observations

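The list for smooth muscle and stroma, which does not belong to the 10 names, had the highest level of all lists for other tissues. The level of miR-143-3p, a miRNA of smooth muscle cells and fibroblasts, was 35085 RPM in the N.C library (34259 to 35923 RPM) and 56408 RPM in the si-LOC550643 library (55773 to 57065 RPM). The log2 fold change was 0.69. Its neighbour miR-145-5p was at 524 and 657 RPM (99 and 323 reads), with overlapping counting intervals of 426 to 638 and 587 to 733 RPM. The gut and kidney list was led by miR-192-5p, at 600 RPM in the N.C library (497 to 724 RPM) and 913 RPM in the si-LOC550643 library (831 to 1002 RPM). The endothelial miRNA miR-126-3p had 2 reads and 8 reads. No name of the pancreas list (4 names) or the embryonic stem list (7 names) was listed in either library. With 1 library per condition, variation between cultures and an effect of the knockdown cannot be told apart for these values.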
